A study of Mus musculus with 15 samples.

Results

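The 40 genes described here form a listed set of microglia genes, among them purinergic and growth factor receptors, the complement C1q chains and myeloid transcription factors, and they were examined in the H3K4me3 landscape of the wild-type (WT) mouse amygdala. They were taken by name, not by any measured value, and all 40 were matched in the GENCODE annotation, version M21, among 21938 protein-coding genes. For each gene, the H3K4me3 peak summits within 1 kb of any of its transcription start sites (TSSs) were collected, and the highest score was kept as its best promoter score.

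The series comprised 11 H3K4me3 ChIP-seq samples and 4 input samples from adult male mice of the genotypes WT, Kmt2a-HET, Kdm5c-KO and the double mutant DM. The WT mice were F1 129xB6 animals without either mutation, and 2 of them gave H3K4me3 samples. The data used here are 1 list of WT summits for both mice together, so no spread between replicates can be given and no test was run. The mutant samples were not analysed here, and the intervals around shares reflect counting error alone.

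H3K4me3, trimethylation of lysine 4 on histone H3, sits on nucleosomes around the start of transcribed genes and is densest at starts rich in CpG dinucleotides, where CpG-binding subunits recruit the methyltransferases. Microglia are the resident macrophages of the brain parenchyma. They arise from yolk sac progenitors, depend on signalling through CSF1R, and owe their identity to transcription factors such as PU.1, IRF8 and SALL1. Most of their characteristic genes are silent in neurons, astrocytes and oligodendrocytes, which make up the larger part of the nuclei of the amygdala.

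In the WT list, 24139 summits lay on chromosomes 1 to 19, X and Y. Their scores, taken to be −log10 q-values since no scale is named in the file, ran from 1.18 to 341.7, with a median of 102.3 and quartiles of 15.0 and 201.2. A score rises with enrichment and with read depth and is not a measure of the number of methylated nucleosomes. The nuclei came from whole dissected tissue with all its cell types, so the label describes the genes and not the nuclei. In such tissue, fewer microglia and less H3K4me3 per microglial promoter cannot be told apart.

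To show what kinds of start lie behind these values, the promoter sequences of 6 members are printed first. They are the members with the highest score (Plcg2) and the lowest (Itgam), those whose best summit lay nearer to the TSS of another gene (Slc2a5 and Fcgr3), and a pair without a promoter summit (Crybb1 and Sall1). Each is the exon-free part of the 250 bases before a RefSeq start on GRCm38.p6, read along the strand of the gene, with every CpG in capitals. RefSeq promoter sequences were matched for 29 of the 40 members. Those without an entry were Adgre1, C1qa, Csf1r, Gpr34, Itgb2, Lyn, Selplg, Spi1, Tmem119, Tyrobp and Unc93b1.
Plcg2 (chr8:117498025-117498274, plus strand): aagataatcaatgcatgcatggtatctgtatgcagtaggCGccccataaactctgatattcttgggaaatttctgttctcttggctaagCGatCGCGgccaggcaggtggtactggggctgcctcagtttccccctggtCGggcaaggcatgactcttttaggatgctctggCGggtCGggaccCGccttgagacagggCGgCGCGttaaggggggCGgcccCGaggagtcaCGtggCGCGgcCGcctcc
Itgam (chr7:128062390-128062639, plus strand): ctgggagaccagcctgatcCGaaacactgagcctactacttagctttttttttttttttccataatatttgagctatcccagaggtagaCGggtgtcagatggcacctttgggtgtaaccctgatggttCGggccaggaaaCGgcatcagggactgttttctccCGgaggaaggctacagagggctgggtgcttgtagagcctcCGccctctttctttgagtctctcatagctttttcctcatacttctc
Slc2a5 (chr4:150119094-150119235, plus strand): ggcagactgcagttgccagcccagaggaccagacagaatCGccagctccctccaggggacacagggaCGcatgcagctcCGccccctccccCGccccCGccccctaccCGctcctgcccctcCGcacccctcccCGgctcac
Fcgr3 (chr1:171059404-171059626, minus strand): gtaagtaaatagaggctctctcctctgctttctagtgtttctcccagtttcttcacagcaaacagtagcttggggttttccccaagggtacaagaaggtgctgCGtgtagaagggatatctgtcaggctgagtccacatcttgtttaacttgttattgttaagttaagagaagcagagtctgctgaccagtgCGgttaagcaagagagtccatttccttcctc
Crybb1 (chr5:112255570-112255814, plus strand): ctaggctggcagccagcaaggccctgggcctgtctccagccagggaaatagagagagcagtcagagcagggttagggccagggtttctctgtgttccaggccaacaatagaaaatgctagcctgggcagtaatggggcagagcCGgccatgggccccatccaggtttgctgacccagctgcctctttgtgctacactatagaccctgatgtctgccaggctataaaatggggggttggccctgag
Sall1 (chr8:89044163-89044412, minus strand): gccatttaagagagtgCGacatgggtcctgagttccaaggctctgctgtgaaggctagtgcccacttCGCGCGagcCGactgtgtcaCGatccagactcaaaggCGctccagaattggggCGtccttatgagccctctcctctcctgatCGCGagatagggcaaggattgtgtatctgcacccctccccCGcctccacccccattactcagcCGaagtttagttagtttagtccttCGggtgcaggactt
The stretches of Plcg2 and Sall1 hold 17 and 13 CpGs in 250 bases. That of Slc2a5 holds 8 in 142 bases and that of Itgam 6 in 250 bases. Only 2 CpGs lie in the 223 bases of Fcgr3, taken at its start without a neighbouring gene, and 1 lies in the 245 bases of Crybb1. So the printed members span CpG-rich and CpG-poor starts, and Sall1 had no summit within 1 kb although its start is CpG-rich.

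A promoter summit was found at 35 of the 40 microglia genes, or 87.5% (95% Wilson interval 73.9 to 94.5%). Over all protein-coding genes the share was 64.7%. The best scores of the marked members, by contrast, all lay below the median of the list. The median best promoter score was 15.4 (quartiles 11.3 and 27.2), against 194.6 (129.8 and 230.2) for the 14197 protein-coding genes with a promoter summit. None of the 40 members, 0%, reached the median score of the list, and the Wilson interval of this share ended at 8.76%. Among all protein-coding genes, 52% did so. The 0% holds for promoters of 1 kb. With 3 kb, summits of Dock2 (109.0, nearer to another gene) and Sall1 (108.7) counted, and both exceeded the list median.

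**Figure D1:**
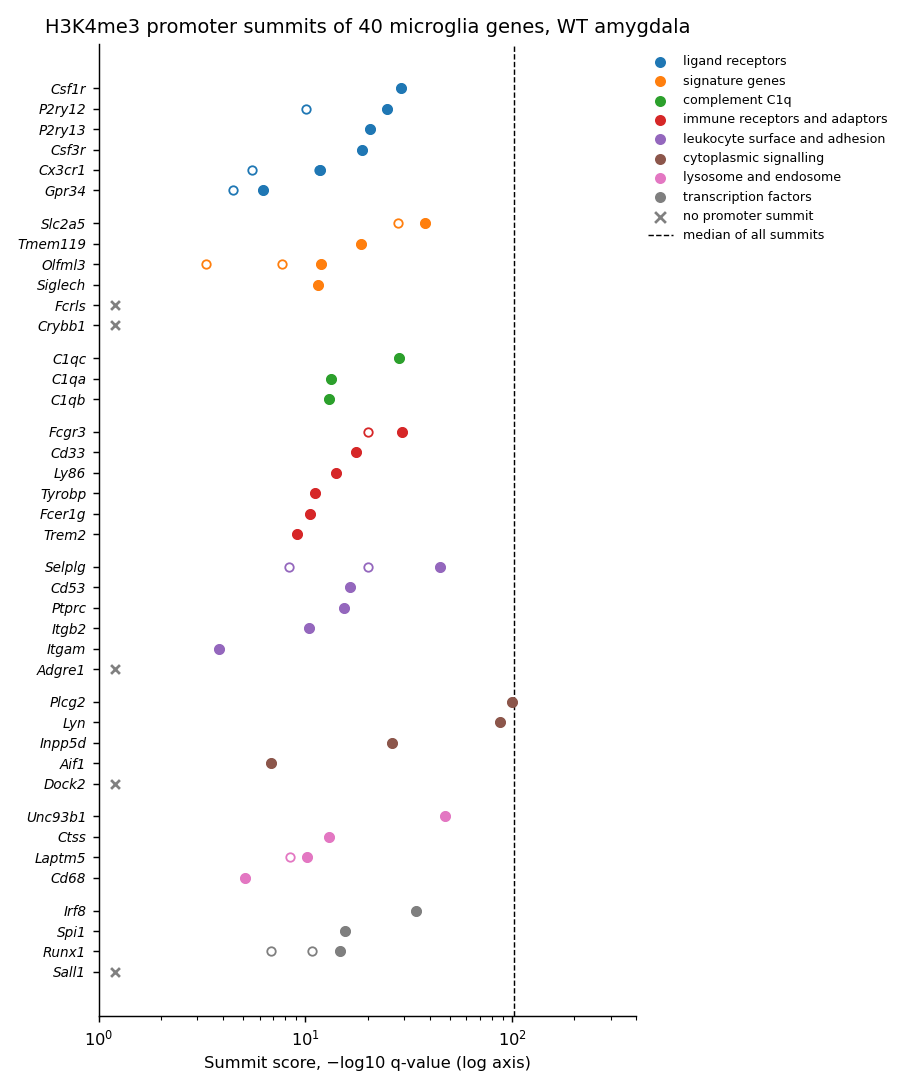
Promoter summits of the 40 microglia genes by role, with the score (−log10 q-value) on a log axis. Filled points are the best summit of each gene and open points its further promoter summits, crosses at the left edge are the 5 genes without one and have no score, and the dashed line is the median of the whole list (102.3). Every filled point lies to the left of the line, and Plcg2 comes closest to it at 100.1.

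Of the 35 members with a summit, 5 scored below 10, 18 from 10 to under 20, 10 from 20 to under 50 and 2 at 50 or more. The plot of summits by role shows this narrow band, in which most members lay within a few units of their neighbours and cannot be put in an order of methylation, since no replicate error is known. In number of promoter summits, 26 members had 1, 5 had 2 and 4 had 3. With 9 of 40 members, 22.5% had 2 or more (95% Wilson interval 12.3 to 37.5%), against 11.7% of protein-coding genes. At some members, such as Cx3cr1 and Gpr34, these summits lay within 1 kb of each other. How joining such summits changes the share is not given.

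All ligand receptors, 6 of 6, were marked, with a median best score of 19.6. Csf1r, the receptor for colony-stimulating factor 1 and interleukin 34 on which microglial survival depends, had the highest at 28.9. Its summit lay at 61106553 on chromosome 18, in the first intron. That was 674 bp downstream of the start of a retained-intron transcript and 5955 bp from the 5′ end of the gene. The score was the same when only starts of protein-coding transcripts were used. P2ry12 (ENSMUSG00000036353), the ADP receptor that steers microglial processes towards injury, had a summit of 24.9 at 59219625 on chromosome 3 and a weaker one of 10.1 at 59262775. The stronger one belongs to the start of a short coding transcript 42671 bp into the gene, and the weaker to a start at the 5′ end. Another summit of P2ry12, outside the 1 kb promoter window, scored 13.2 at 59218543.

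P2ry13, a related ADP receptor, lies next to P2ry12 on the same strand. Its summit of 20.6 at 59210217 was 9408 bp from the best summit of P2ry12, and both genes lie inside the gene body of Med12l on the opposite strand. Csf3r, the receptor for granulocyte colony-stimulating factor, scored 18.7. Cx3cr1, the fractalkine receptor through which neurons signal to microglia, carried 3 promoter summits with scores of 11.8, 11.6 and 5.50, and 2 more within its first intron at 120066225 and 120066828 on chromosome 9, with scores of 11.0 and 9.80. These 5 summits spread over a stretch in which no other gene starts nearer to any of them. GENCODE also gives Cx3cr1 a transcript that makes the gene 168264 bp long, and the strong summits far inside it, 266.6 at 178 bp from Gorasp1 and 156.6 at 227 bp from the antisense gene 1700019L13Rik, lie at the starts of those genes. Gpr34, a receptor for lysophosphatidylserine, had summits of 6.20 and 4.45 at its promoter and of 7.12 further inside the gene.

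The signature genes, used to tell microglia from other macrophages, were marked in 4 of 6 cases, with a median of 15.3. Tmem119, a membrane protein widely used as a microglial label, had 1 summit of 18.6 at 113800199 on chromosome 5, 247 bp downstream of a TSS. Olfml3, a secreted olfactomedin-like protein, had 3 summits of 11.9, 7.66 and 3.29. Siglech, a sialic acid-binding lectin, scored 11.5. Slc2a5, the fructose transporter GLUT5, had the highest score of the group, 37.9 at 150118969 on chromosome 4. That summit lay 314 bp upstream of its TSS and 294 bp from the start of the lincRNA Gm13093, so the gene to which it belongs cannot be told from position. Its other promoter summit, inside an intron, scored 27.98 and had no other gene nearer.

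Fcrls and Crybb1 had no promoter summit. Fcrls, an Fc receptor-like scavenger receptor, lay 89109 bp from its nearest summit, which scored 175.1 and sat 60 bp from a start of Kirrel. Crybb1, a lens crystallin gene that is also transcribed in young microglia, lay 18303 bp from a weak summit of 2.16. Neither had a summit inside the gene. The stretch of Crybb1 printed above contains a TATAAA hexamer and 1 CpG.

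The complement C1q genes encode the A, B and C chains of the protein that starts the classical complement pathway, and microglia are its main source in the brain. They lie in tandem on the minus strand of chromosome 4, and each had 1 summit downstream of its own start. C1qc scored 28.3 at 136892513, C1qa 13.3 at 136897839 and C1qb 13.03 at 136885967. The summits of C1qa and C1qc were 5326 bp apart and those of C1qb and C1qc 6546 bp apart, close to the distances between the starts (5738 and 6689 bp). Thus the cluster carried separate summits, with the highest score at the middle gene.

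**Figure D2:**
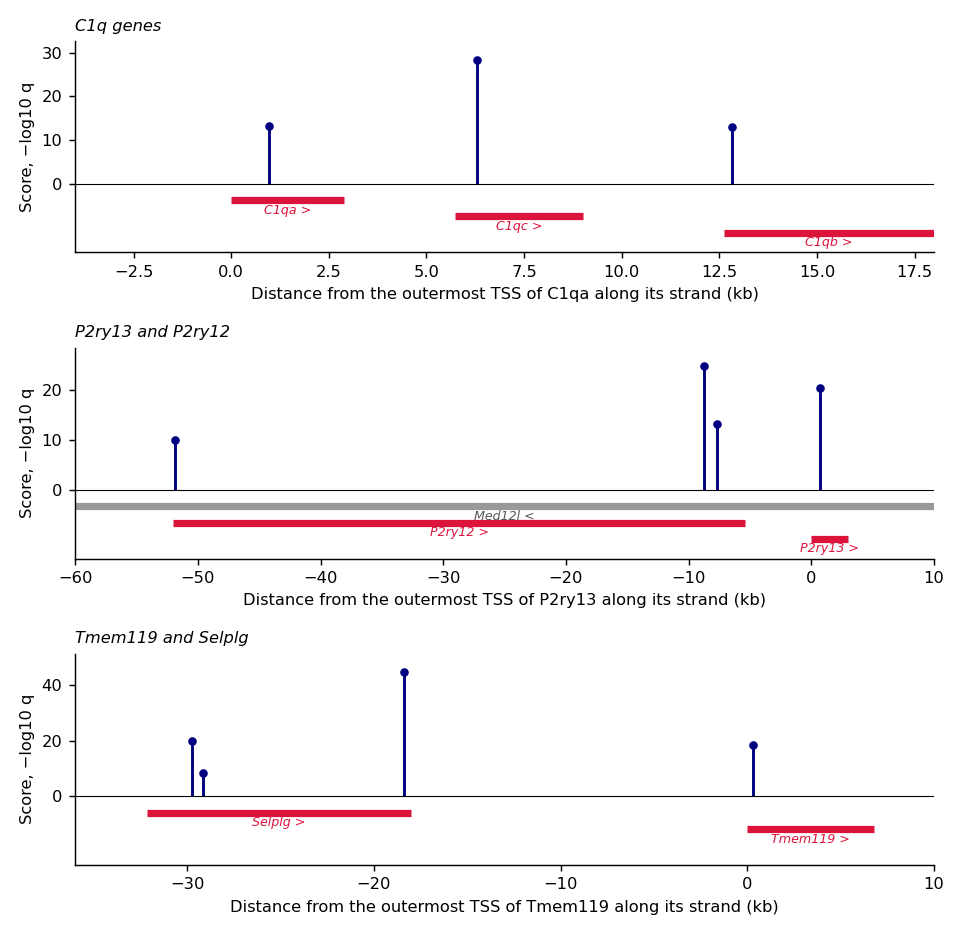
H3K4me3 summits (vertical lines, score as −log10 q-value) around neighbouring microglia genes, against the distance in kb from the outermost TSS of C1qa, P2ry13 and Tmem119 along the strand of that gene. Red bars are microglia genes and the grey bar is Med12l, with > or < for the strand relative to the anchor gene. Each C1q gene has 1 summit to the right of its start, P2ry12 has its highest summit near its right end, and the highest summit of Selplg, 44.6, lies near its 3′ end.

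Among immune receptors and adaptors, 6 of 6 members were marked, with a median of 12.6. Trem2, the lipid-sensing receptor linked to Alzheimer's disease risk, scored 9.11 at 48346678 on chromosome 17, and a further summit of 11.1 lay 1196 bp downstream of the start. Tyrobp, which encodes DAP12, the signalling partner of TREM2, scored 11.1, with its summit 119 bp downstream of a start. Fcer1g, the common gamma chain of Fc receptors, reached 10.5 and Ly86, which encodes the MD-1 partner of RP105, reached 14.1. The scores of Trem2 and of the signalling chains Tyrobp and Fcer1g lay between 9.11 and 11.1.

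Cd33, an inhibitory sialic acid-binding lectin, scored 17.5 at 43532902 on chromosome 7. This summit was 52 bp from the start of a non-coding transcript that begins 11474 bp into the annotated gene, and the score was the same when only starts of protein-coding transcripts were used. It also lay 269 bp from the RefSeq start of Cd33. Fcgr3, a low-affinity receptor for immunoglobulin G, had a summit of 29.4 at 171064577 on chromosome 1, which lay 358 bp from its outermost start but 75 bp from the microRNA Mir6546. Its other summit, at 171059175 and 228 bp downstream of starts of further coding transcripts, scored 19.998 and had no other gene nearer. The sequence of Fcgr3 printed above precedes this second start.

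Genes for leukocyte surface and adhesion proteins carried a summit in 5 of 6 cases, with a median of 15.4. The highest was that of Selplg, which encodes the P-selectin ligand PSGL-1, at 44.6. It lay at 113818918 on chromosome 5, 339 bp from the start of a 3′ transcript that begins 13387 bp into the gene, whose length is 14109 bp. Summits of 19.996 and 8.36 lay 237 and 795 bp downstream of another start of Selplg nearer its 5′ end. Tmem119 is the neighbour of Selplg on the same strand, with 18719 bp between their best summits.

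Ptprc, which encodes the leukocyte tyrosine phosphatase CD45, scored 15.4 at 138174790 on chromosome 1, and a summit of 17.7 lay far inside the gene, in an intron. Cd53, a leukocyte tetraspanin, scored 16.5. Complement receptor 3 is made of an alpha and a beta integrin chain. Itgb2, the beta chain (CD18), scored 10.4, whereas Itgam, the alpha chain (CD11b), had the lowest best score of all members, 3.81 at 128063218 on chromosome 7, above only 4.37% of the list. Another coding gene, Gm49368, also starts within 1 kb of the Itgam summit. Adgre1, which encodes the macrophage antigen F4/80, had no promoter summit and none inside the gene, and the nearest, 79400 bp away with a score of 21.2, sat 164 bp from a start of Vav1.

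Genes for cytoplasmic signalling proteins were marked in 4 of 5 cases, with a median of 56.8, and they include the pair of members with the highest scores, Plcg2 and Lyn. Plcg2 (ENSMUSG00000034330), the phospholipase C downstream of TREM2 and Fc receptors, scored 100.1 at 117498466 on chromosome 8, above 49.6% of the list but above only 19.3% of protein-coding genes with a summit. Lyn, a Src family kinase of myeloid and B cells, scored 87.5 at 3678345 on chromosome 4. Inpp5d, the inositol phosphatase SHIP1, followed at 26.2. Aif1, which encodes the microglial stain IBA1, scored 6.81 at 35172426 on chromosome 17, near a start 3437 bp into the gene.

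Dock2, a guanine nucleotide exchange factor for Rac in leukocytes, had no promoter summit. The nearest, at 34315542 on chromosome 11, scored 109.0 and lay inside an intron of Dock2, 2905 bp from an internal start. It was 720 bp from the start of Fam196b.

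Genes of the lysosome and endosome were marked in 4 of 4 cases, with a median of 11.5. Unc93b1, the chaperone that brings Toll-like receptors to endosomes, scored 47.4 at 3935788 on chromosome 19. Ctss, the protease cathepsin S, scored 12.96. Laptm5, a lysosomal membrane protein of haematopoietic cells, had summits of 10.1 and 8.45. Cd68, a glycoprotein of late endosomes that marks phagocytic macrophages, had only a weak summit of 5.12, lower than at all other marked members but Itgam.

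Transcription factors of microglia were marked in 3 of 4 cases, with a median of 15.5. Irf8, an interferon regulatory factor required for myeloid development, scored 34.3 at 120736504 on chromosome 8, 119 bp downstream of a start. Spi1, which encodes PU.1, scored 15.5 at 91097124 on chromosome 2. That summit lay in an intron of the full-length gene, 344 bp downstream of the start of a shorter coding transcript and 14734 bp from the 5′ end. A further summit of 13.05 in the 3′ part of Spi1 lay nearer to Mybpc3.

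Runx1, a haematopoietic factor with a distal and a proximal promoter, carried summits near both. At the distal side a summit of 10.8 lay 457 bp downstream of the start at 92825778 on chromosome 16, and at the proximal side summits of 14.7 and 6.82 lay upstream of starts 130654 and 128821 bp into the gene. Sall1, a zinc finger factor that in the adult brain is kept on in microglia, had no promoter summit. A summit of 108.7 lay inside its intron at 89041362 on chromosome 8, 2800 bp downstream of its only GENCODE start, and no other gene starts nearer to it. RefSeq gives further starts for Sall1, and the most downstream of them still left 1500 bp to the summit.

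Most members carried the mark just inside the transcribed region, as did most protein-coding genes with a summit. Of the 35 best summits, 31 lay downstream of the nearest start of the member and 4 upstream, or 88.6% downstream, against 79.3% for all protein-coding genes. Their median position was 230 bp downstream (quartiles 152.5 and 381), and that of all protein-coding genes 171 bp (49 and 327). By annotation, 19 best summits fell in a first intron, 6 in a first exon, 5 in a UTR, 4 in another exon and 1 upstream of the gene. Marking at internal starts alone also occurred among other genes. The share of marked protein-coding genes was 64.7% with all TSSs and 58.2% with the outermost only. That of members was 87.5% and 72.5%. For 6 members the marked start was not the outermost one of GENCODE. Cx3cr1, Csf1r, Cd33, Selplg, Aif1 and Spi1 had no summit within 1 kb of the 5′ end of the gene, and their closest promoter summit lay between 1243 bp (Cx3cr1) and 14734 bp (Spi1) from it. From RefSeq starts, the nearest summit was 269 bp away for Cd33 and 340 bp for Cx3cr1, but 3626 bp for Aif1. Csf1r, Selplg and Spi1 had no RefSeq entry here.

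**Figure D3:**
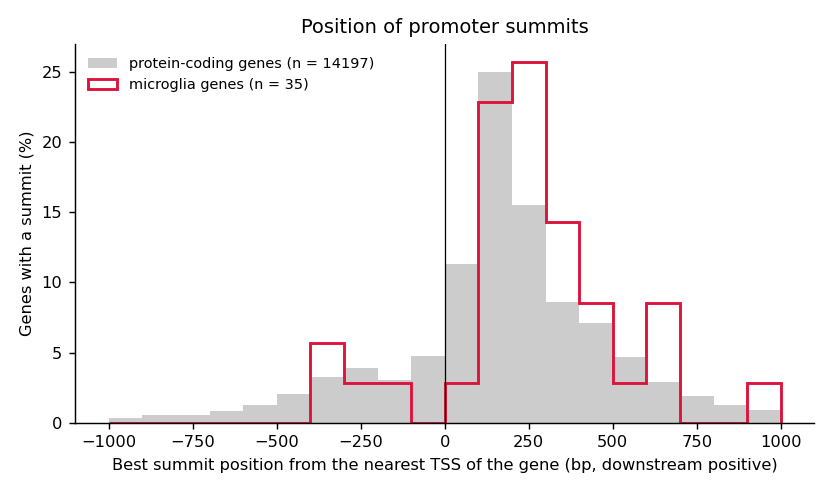
Position of the best promoter summit relative to the nearest TSS of its gene, in bp with downstream positive, as the percent of genes with a summit in each bin. The grey area is all protein-coding genes (n = 14197) and the red line the microglia genes (n = 35), which have 31 of their 35 summits to the right of 0.

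The number of marked members was the same with and without summits of neighbouring genes. Of 48 promoter summits of members, 2 lay nearer to the TSS of another gene, those of Slc2a5 and Fcgr3 named above, and both genes kept another summit of their own. Counting only summits that lie nearest to the gene itself, 35 of 40 members were marked, against 57.2% of protein-coding genes. Inside gene bodies but outside promoters, 11 members held 20 further summits, of which 10 lay nearer to another gene. Some of these lay at starts of other genes within the long Cx3cr1 annotation. No such count is given here for all protein-coding genes, so whether these numbers are high or low cannot be said.

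Starts of microglia genes were mostly CpG-poor. The ratio of observed to expected CpG, taken 500 bp either side of the outermost TSS, had a median of 0.244 over the 40 members, against 0.552 over protein-coding genes. A ratio below 0.3 was found at 27 members. Of these, 24 had a promoter summit, or 88.9% (71.9 to 96.1%). Among the 7266 protein-coding genes with so low a ratio, 17.9% had one. The class was set at the outermost TSS, while a summit counted at any TSS, for members and other genes alike. Cx3cr1, Csf1r, Cd33, Selplg, Aif1 and Spi1, all in this class, had no summit within 1 kb of that TSS. Shares by class with the outermost TSS only are not given. A high share was not particular to the members. In the marker lists described below, CpG-poor genes were marked in 6 of 6 cases for astrocytes and 5 of 6 for oligodendrocytes. It was 3 of 4 for neurons, 7 of 8 for endothelial and mural cells and 11 of 13 for further microglial genes. Among disease-associated microglial genes it was 0 of 6, and for other immune cells 2 of 13 and 2 of 19. Between 0.3 and 0.6, 7 of 8 members were marked, against 71.1% of genes. Above 0.6, 4 of 5 were marked, namely Plcg2, Lyn, Irf8 and Fcgr3, against 95.5% of genes, and Sall1 was not. Fcgr3 falls in this class by its outermost start (0.840), where its summit lies nearer to Mir6546. Before the start with its other summit, the 223 bases printed above had a ratio of 0.176.

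**Figure D4:**
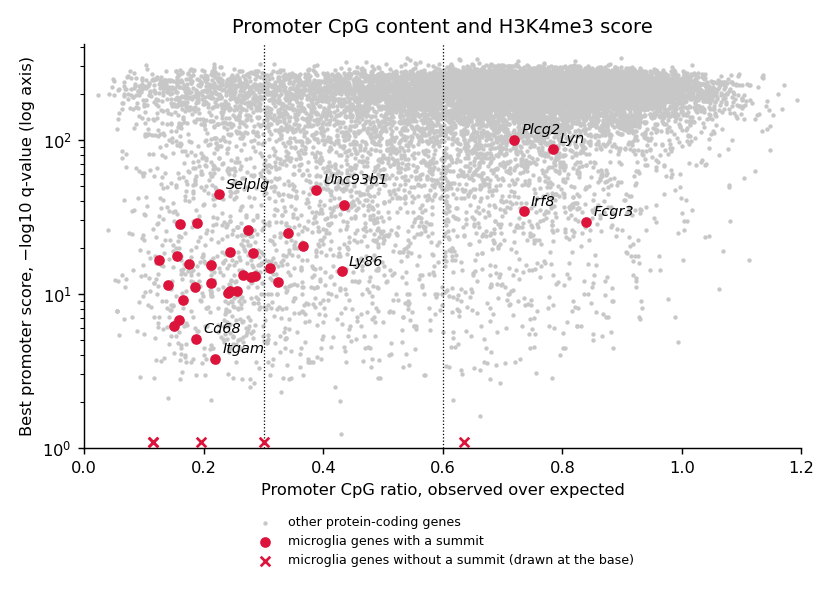
Best promoter score (−log10 q-value, log axis) against the CpG ratio of the promoter (observed over expected, linear axis) for all protein-coding genes with a summit in grey and microglia genes in red. Dotted lines separate the CpG classes at 0.3 and 0.6, and crosses at the base are the 5 members without a summit, of which Crybb1 and Adgre1 overlap at 0.115. Most members lie at the lower left, and the CpG-rich members Plcg2 and Lyn stand at 100.1 and 87.5.

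Within each CpG class the members had a lower median than the genes of that class. Their median best scores were 12.99 below a ratio of 0.3, 20.6 from 0.3 to 0.6 and 60.9 above 0.6. Those of all marked protein-coding genes were 109.0, 161.6 and 205.9. The value of 60.9 includes Fcgr3 with the 29.4 of its outermost start. None of the 24 marked CpG-poor members scored above the median of their class. This comparison depended on the start at which CpGs were counted. With the ratio taken at the start of the best summit, 628 marked protein-coding genes were CpG-poor and their median score was 27.2, while 22 members had a median of 12.4 and 2 of them scored above 27.2.

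Promoter sequences were searched on both strands for short cores bound by myeloid factors, in the window from 250 bases before to 50 bases after each RefSeq start. GAGGAA, the core bound by PU.1, was present in at least 1 promoter of 19 of the 29 matched members, or 65.5%, against 30.3% of all matched protein-coding genes. Counted over promoters, the shares were 57.1% of 35 member promoters, 27.2% of all and 31.3% of CpG-poor promoters. TGTGGT, the core bound by RUNX factors, was present at 10 members (34.5%, against 16.95%), and counted over promoters at 28.6% of those of members, 14.7% of all and 20.7% of the CpG-poor ones. TATAAA was present at 6 members (20.7%, against 14.3%), and among promoters at 17.1% of those of members and 23.03% of the CpG-poor ones. The longer composite of PU.1 and IRF core letters, which can share letters with GAGGAA, was found at Cd68 (3.45%, against 3.05%). A match of letters is a description of the window and not of binding.

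The GAGGAA core, or TTCCTC where it lies on the other strand, is shown in capitals within 40 bases of genomic sequence for 5 members from different roles, which were chosen after their values were seen.
P2ry13 (chr3:59210908-59210947, minus strand): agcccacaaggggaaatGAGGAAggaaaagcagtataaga
C1qb (chr4:136886208-136886247, minus strand): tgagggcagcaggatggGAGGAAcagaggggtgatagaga
Ptprc (chr1:138175441-138175480, minus strand): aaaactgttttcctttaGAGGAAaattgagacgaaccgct
Ctss (chr3:95526605-95526644, plus strand): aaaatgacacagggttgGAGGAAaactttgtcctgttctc
Trem2 (chr17:48346344-48346383, plus strand): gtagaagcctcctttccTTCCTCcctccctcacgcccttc
In these windows the first base of the core lay 30 bases before the RefSeq start at C1qb, 40 at Trem2, 48 at P2ry13, 158 at Ptprc and 164 at Ctss.

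To place the members among other cell types, markers of further lists were counted in the same way. Of 30 further microglial genes 27 were marked, with a median of 28.03. Of these, 7 reached the list median, among them Cst3 (263.4) and Lpcat2 (190.9). Both counts include Ltc4s (110.8), whose only promoter summit lay nearer to another gene. Cd84 and Gpr84 were among the genes not marked. Cst3, a secreted protease inhibitor, is also transcribed in other brain cells, and their part in its score was not tested. The scores of this list ran from 2.81 to 263.4 and those of the 40 members from 3.81 to 100.1. In the list of disease-associated microglia, genes induced around plaques and dying cells, 6 of 13 found genes were marked, with Csf1 (185.3), Apoe (142.6, also in the astrocyte list) and Cd9 (114.5, nearer to another gene) on top. The median of the 6 was 99.7. Ccl3, Ccl4, Cst7, Cybb, Gpnmb, Itgax and Spp1 had no summit.

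Few markers of other immune cells had a promoter summit. Most of them have CpG-poor starts, and among these 2 of 13 genes of border macrophages and monocytes and 2 of 19 of lymphocytes and neutrophils were marked, near the 17.9% of all CpG-poor protein-coding genes. Among genes of border macrophages and monocytes, 2 of 14 had a summit, Cd163 at 25.5 and Stab1 at 9.11, and those of Mrc1, Lyve1, Pf4, Ms4a7, Cbr2, F13a1, Ccr2, Ly6c2, Plac8, Chil3, Cd209f and Clec4n had none. For lymphocytes and neutrophils it was 2 of 22, Lck at 76.4 and Cd4 at 3.29. Lck is a T cell kinase and Cd4 a co-receptor of T helper cells. The defining T cell and B cell genes Cd3e, Cd3d, Cd3g and Ms4a1 and the neutrophil genes S100a8, S100a9, Ly6g, Mpo and Elane had no promoter summit. The part of blood leukocytes in the scores of members that they also transcribe, such as Ptprc, Itgb2 and Cd53, was not tested.

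Markers of neurons and of the other glia had higher medians. Neuronal markers were marked in 19 of 20 cases with a median of 212.9, led by Map2 (284.3), Camk2a (272.5) and Snap25 (266.8), with Stmn2 unmarked. The marked ones include Slc32a1 (177.3), whose only promoter summit lay nearer to another gene. The medians were 106.8 for oligodendrocytes (18 of 20 marked, led by Cnp at 192.4, Mbp at 182.9 and Tspan2 at 166.1, with Olig1 and Sox10 unmarked) and 91.4 for astrocytes (20 of 20, led by Clu at 213.4, Slc1a2 at 188.4 and Slc1a3 at 174.3). For endothelial and mural cells, 18 of 20 genes were marked, with a median of 27.5. Egfl7 (169.7), Kdr (75.4) and Pdgfrb (70.4) led that list, and Acta2 and Cspg4 were unmarked. Among marked CpG-poor genes, the median was 17.3 for endothelial and mural cells, against 12.99 for the microglia genes. It was 63.2 for astrocytes, 94.8 for oligodendrocytes and 218.8 for neurons. The list median was reached by 19 of 20 genes for neurons, 10 of 20 for oligodendrocytes and 9 of 20 for astrocytes. It was reached by 1 of 20 for endothelial and mural cells and 0 of 40 for the microglia genes. In the other microglial lists it was 7 of 30 further microglial genes and 3 of 13 disease-associated ones. For border macrophages and monocytes it was 0 of 14, and for lymphocytes and neutrophils 0 of 22. The share of each cell type among the nuclei was not measured, so its part in these scores was not tested.

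**Figure D5:**
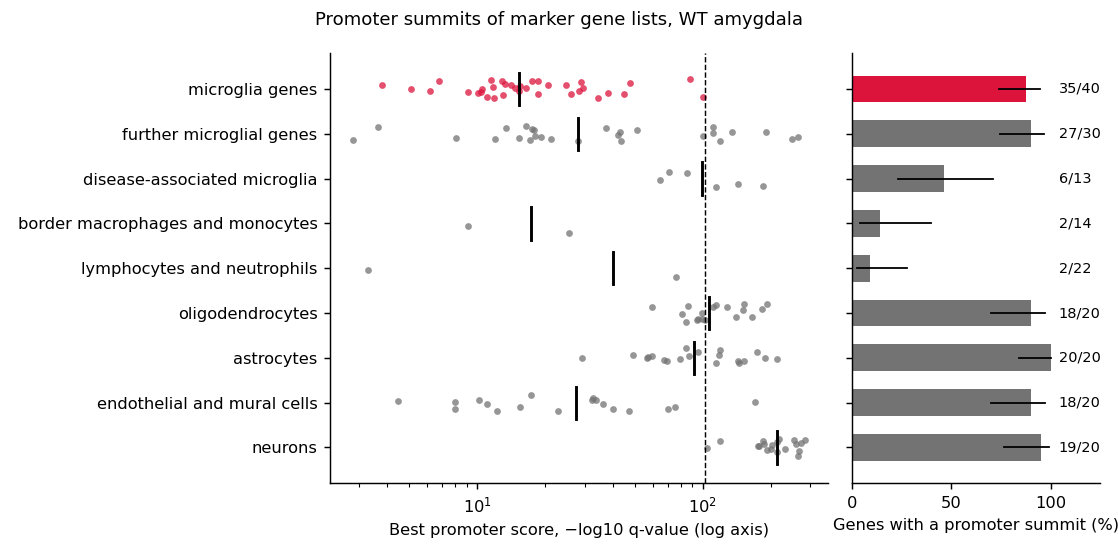
Best promoter score (−log10 q-value, log axis) of each marked gene by list on the left, with a bar at the median of the list and a dashed line at the median of all summits, and on the right the percent of genes with a promoter summit with 95% Wilson intervals. The microglia genes have 35 of 40 marked and a median of 15.4, to the left of neurons (212.9), oligodendrocytes (106.8) and astrocytes (91.4).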

How the data were processed

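H3K4me3 ChIP-seq was performed on MNase-digested amygdala nuclei. Per the labels and the Methods, Bowtie alignments to mm10 were restricted by the authors to uniquely mapping reads, and MACS2 2.1.0.20140616 was run against input. The deposited WT list gives 1 bp summits with a score read as −log10 of the q-value, for both WT mice pooled. Depth behind a score is not given by the list, which has no per-sample columns (unmatched: 0), and repetitive starts are missed by unique alignment.

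Only summits of chromosomes 1 to 19, X and Y entered, and they were placed against GENCODE M21 TSSs on GRCm38. Promoters reached 1 kb to both sides of each TSS. Alternatives covered promoter width, the TSSs used, score minimum, joining of summits, the handling of summits nearer another gene and the CpG window. All 40 members are named; of other lists, unmarked genes and the 3 highest were named, and some of these are not reported here. The members and lists were chosen with earlier results of these data known. Scripts, tested on simulated data, used Python 3.11.15, numpy 2.4.6, pandas 2.3.3, pysam 0.24.0, samtools 1.23.1 and matplotlib 3.10.9.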

Additional observations from a re-analysis of the deposited data

How the results depend on the processing

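No paired analysis was possible because both WT mice share 1 list, and for the same reason no replicate could be left out. The share of marked members, 87.5%, was 72.5% with the outermost TSS only (58.2% of protein-coding genes) and 0% when only summits reaching the median score were kept (52.0%), which leaves no median. It ranged from 75% to 92.5% under the other alternatives. The 75% was reached with scores of at least 10, against 62.7% of protein-coding genes. The 92.5% was reached with a 3 kb promoter, against 67.1%, which added Dock2 and Sall1. These 2 scored 109.0 and 108.7, above the list median. The median best score, 15.4, was 14.7 with 500 bp, 15.5 with 3 kb and with summits joined, 13.3 with the outermost TSS and 17.03 with scores of at least 10. Members marked only by summits nearer another gene, 0 in the report, numbered 1 with 500 bp (Slc2a5), 1 with 3 kb (Dock2) and 3 with the outermost TSS (Slc2a5, Fcgr3 and Itgam). The median CpG ratio, 0.244, was 0.267 with 250 bp, 0.224 with 1 kb, 0.258 as a mean over TSSs and, chosen after seeing the data, 0.266 at the TSS of the best summit. P2ry12 fell from 24.9 to 10.1 with 500 bp and with the outermost TSS, and the mean over promoter summits changed the score of 9 of 35 members. RefSeq starts, also added after seeing the data, left the share, the median score and the count at their values. The cause of these changes was not tested. The list gives no depth, so what depth limits could not be measured, and 5 members (Itgam, Cd68, Gpr34, Aif1 and Trem2) scored below 10.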
